A study of Solenopsis invicta with 12 samples.

Results

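In the worker antennae of the red imported fire ant, Solenopsis invicta, 2 of the 19230 genes in the expression tables, SINVm1_gene_00166 and XLOC_023347, were followed across the 3 worker classes. They were picked by identifier, because their values in these same libraries run upward from monogyne SB/SB over polygyne SB/SB to polygyne SB/Sb workers. Their levels and ratios are therefore given as a description and no test is attached to them. Each class had 4 libraries, each a pool of antennae from workers of the same genotype and the same colony. M_BB workers carried SB/SB and came from monogyne colonies, P_BB workers carried SB/SB and came from polygyne colonies, and P_Bb workers carried SB/Sb and came from the same polygyne colonies as P_BB. All 12 pools were untreated medium-sized foragers, and their RNA was amplified before sequencing. Bioreplicates were numbered 2, 3, 6 and 7. The P_BB and P_Bb pools of a number shared a colony, whereas M_BB of the same number was drawn from a monogyne colony, so that colony and social form cannot be told apart within a number. In these pooled tissues, a difference in the number of expressing cells and a difference in RNA per cell cannot be told apart.

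The social supergene of the fire ant is a block of linked genes on the social chromosome, with the variants SB and Sb. Monogyne colonies keep a single queen and hold SB/SB workers, while polygyne colonies keep several queens and hold workers of both genotypes, so P_BB shares its genotype with M_BB and its social form with P_Bb. SINVm1_gene_00166 is predicted to encode a protein with a transposase domain. Transposases cut DNA transposons out of the genome and paste them elsewhere, and transcripts of such elements are often read from several similar copies. XLOC_023347 is an assembled transcript that encodes an uncharacterized protein, and no role is known for it. The study's table places it on a linkage group other than the social chromosome and gives SINVm1_gene_00166 no linkage group.

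The libraries held 1662249 to 4101327 expected counts, and TMM factors (the scaling factors between libraries) ran from 0.842 to 1.12. The odorant receptor gene XLOC_016888 (SiOR463), used here as a marker of antennal tissue, was above 0 in all 12 libraries (TPM, the RSEM measure of transcript abundance, is scaled to transcript length and library size). It had 10.6 to 16 TPM in M_BB, 11.5 to 13.7 in P_BB and 3.94 to 8.16 in P_Bb, so its level itself differed between the genotypes without overlap and it marks only the tissue. The receptor gene SINVm1_gene_13698 (SiOR462) was low, at 0 to 6.59 TPM. In the fit over all genes, 10503 genes passed the filter on low counts, both members among them. SINVm1_gene_00166 passed through its counts in P_Bb.

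The members differed in length and in the evidence behind their gene models. SINVm1_gene_00166 belongs to the official gene set and has 1 transcript of 1119 bases, longer than 33.6% of the tested genes. The deposited annotation of assembled genes holds no position for it. XLOC_023347 has 1 transcript of 5247 bases, longer than 91.7% of the tested genes. It lies on scaffold 59 of the Si_gnH assembly, from base 4 to base 5251, as 1 exon with no strand assigned and with the class code for an intergenic transcript. Its model thus begins at the edge of the scaffold, as did that of 251 of the 3641 assembled genes in the tables (start within 10 bases). An assembled gene with 1 exon, no strand and that class code was common, with 1947 of the 3641.

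Neither gene shared many reads with other sequences of the reference. RSEM, the program that made the tables, divides reads that match several genes and reports the standard deviation of each count that this division leaves. For SINVm1_gene_00166 all counts were whole and that standard deviation was 0 in 12 of 12 libraries, and the standard deviation was 0 throughout in 2310 of the 10503 tested genes. For XLOC_023347 it was at most 0.84 counts, beside expected counts of 98.0 to 934. Among the other transposable elements, the same measure reached 7.65 counts in XLOC_003144 and 69.4 counts in SINVm1_gene_10899, which in the latter was 101% of its highest count. Copies outside the reference were not tested.

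SINVm1_gene_00166 was close to the detection floor in M_BB and abundant in P_Bb. In bioreplicates 2, 3, 6 and 7 its level in M_BB was 1.16, 3.35, 1.23 and 3.57 TPM, resting on 2, 6, 3 and 4 counts. In P_BB it was 15.5, 4.37, 7.93 and 3.88 TPM, resting on 24, 8, 15 and 6 counts. In P_Bb it was 74.4, 51.0, 60.5 and 52.7 TPM, resting on 143, 66, 137 and 85 counts. The 3 classes did not overlap, since the highest M_BB library lay just under the lowest P_BB library and every P_Bb library lay far above both. The class means were 2.33 ± 1.31 TPM in M_BB, 7.92 ± 5.37 TPM in P_BB and 59.7 ± 10.7 TPM in P_Bb (SD, n = 4 each). Relative to its mean, the spread was largest in P_BB, with a coefficient of variation of 67.8%, against 56.3% in M_BB and 17.9% in P_Bb. Ranked by mean TPM among all 19230 genes, it lay above 33.5% of genes in M_BB, 47.4% in P_BB and 83.2% in P_Bb.

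XLOC_023347 was present at a moderate level in every library and highest in P_Bb. In bioreplicates 2, 3, 6 and 7 its level in M_BB was 10.3, 19.9, 8.53 and 17.4 TPM, on 98.0, 199, 117 and 107 expected counts. In P_BB it was 16.2, 25.7, 23.1 and 12.0 TPM, on 140, 261, 246 and 103 expected counts. In P_Bb it was 57.4, 65.8, 73.1 and 73.4 TPM, on 618, 474, 934 and 662 expected counts. The P_Bb libraries stood apart from the other 8, but P_BB and M_BB overlapped, with P_BB of bioreplicates 2 and 7 below the highest M_BB library. Class means were 14.01 ± 5.46 TPM in M_BB, 19.3 ± 6.30 TPM in P_BB and 67.4 ± 7.56 TPM in P_Bb (SD, n = 4 each). The difference between the P_BB and M_BB means was smaller than either SD. It ranked above 56.7% of genes in M_BB, 62.6% in P_BB and 85.0% in P_Bb.

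**Figure D1:**
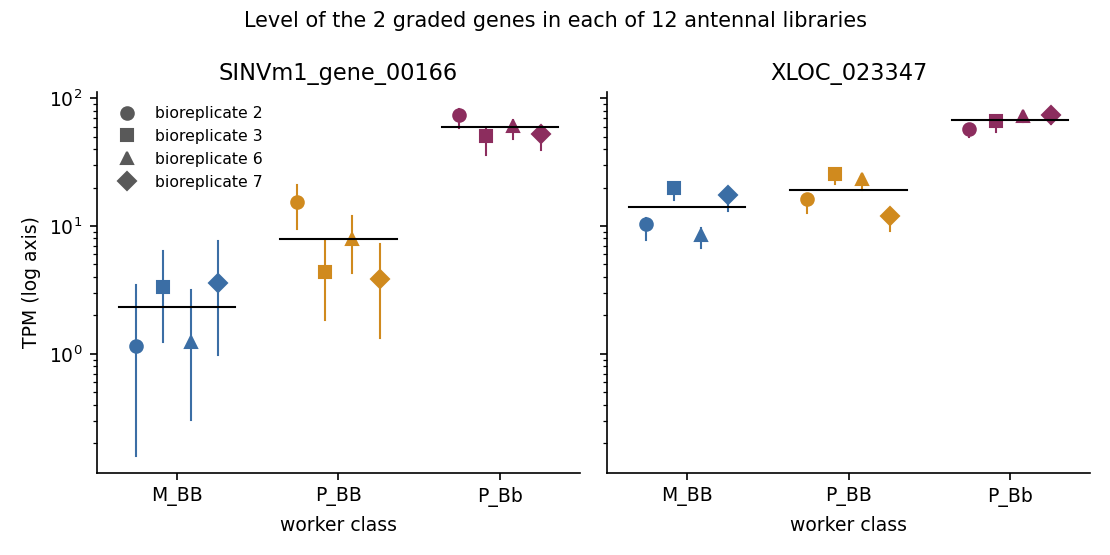
TPM of SINVm1_gene_00166 (left) and XLOC_023347 (right) on a log axis in each of 12 libraries, by worker class, with a marker for each bioreplicate, RSEM's credibility interval as a vertical line and the class mean as a black bar. The 4 P_Bb libraries lie above the other 8 for both genes, and P_BB and M_BB overlap for XLOC_023347 only.

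The precision of the lower classes differed between the genes. For SINVm1_gene_00166, 1 count was worth between 0.41 and 0.893 TPM, so its P_BB and M_BB levels in bioreplicate 7, from 6 and 4 counts, differed by less than the value of 1 count in either library. For XLOC_023347, 1 count was worth 0.0729 to 0.162 TPM. RSEM's credibility interval covers the uncertainty from the reads of a library and not that between colonies. For SINVm1_gene_00166 in bioreplicate 2 it ran from 9.39 to 20.9 TPM in P_BB and from 0.16 to 3.47 TPM in M_BB. In bioreplicate 7 it ran from 1.34 to 7.26 TPM in P_BB and from 0.984 to 7.67 TPM in M_BB. For both genes, the P_BB and M_BB intervals overlapped in 2 of 4 bioreplicates, namely 3 and 7, and were separate in 2 and 6. The intervals of P_Bb and either other class were separate in 4 of 4. In 2 of the 12 libraries the TPM of XLOC_023347 itself lay outside its interval, slightly above the upper bound, both in P_Bb.

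Within bioreplicates, the larger of the log2 steps lay between P_BB and P_Bb in all 4 bioreplicates for XLOC_023347 and in 3 of 4 for SINVm1_gene_00166, with bioreplicate 2 the exception. SINVm1_gene_00166 in P_Bb was 4.80, 11.7, 7.64 and 13.6 times its level in the P_BB nestmates of bioreplicates 2, 3, 6 and 7. The mean log2 ratio was 3.13 ± 0.67 (SD, n = 4). Its P_BB level was 13.4, 1.30, 6.45 and 1.09 times the M_BB level, a mean log2 ratio of 1.73 ± 1.77. This step was thus large in 2 bioreplicates and close to none in the other two, and its SD exceeded its mean. From M_BB to P_Bb the whole difference was 64.1, 15.2, 49.2 and 14.8 times, a mean log2 ratio of 4.86 ± 1.11.

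XLOC_023347 showed smaller steps. P_Bb was 3.55, 2.56, 3.16 and 6.13 times P_BB, a mean log2 ratio of 1.86 ± 0.54 (SD, n = 4). P_BB was 1.57, 1.29 and 2.71 times M_BB in bioreplicates 2, 3 and 6 but 0.69 times in bioreplicate 7, a mean log2 ratio of 0.48 ± 0.82. Only 3 of 4 bioreplicates therefore had P_BB above M_BB, and the mean lay within its SD of 0. From M_BB to P_Bb the ratios were 5.58, 3.31, 8.57 and 4.23 times, a mean log2 ratio of 2.35 ± 0.59.

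**Figure D2:**
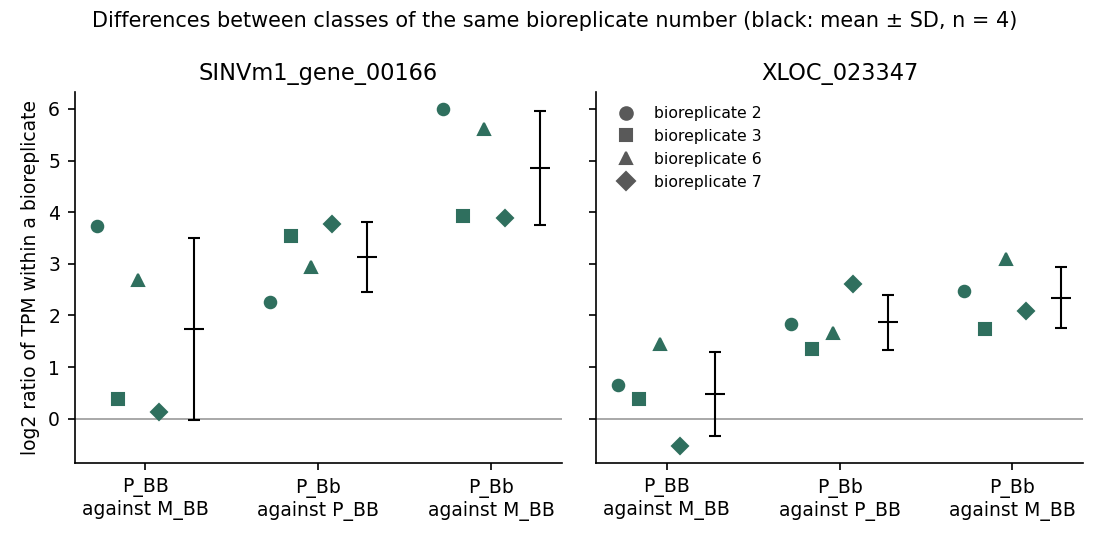
Log2 ratio of TPM between 2 classes of the same bioreplicate number, for SINVm1_gene_00166 (left) and XLOC_023347 (right), with points for the 4 bioreplicates and black bars for mean ± SD. All ratios of P_Bb to another class lie above 0, while the ratios of P_BB to M_BB spread from 0.12 to 3.74 for SINVm1_gene_00166 and from -0.54 to 1.44 for XLOC_023347.

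Fold changes fitted over all 12 libraries with edgeR were close to these ratios. For SINVm1_gene_00166 the log2 fold change was 2.85 ± 0.44 (SE) for P_Bb against P_BB, 1.83 ± 0.55 for P_BB against M_BB and 4.68 ± 0.52 for P_Bb against M_BB. For XLOC_023347 the corresponding values were 1.78 ± 0.26, 0.42 ± 0.26 and 2.20 ± 0.27. A single library carried much of the lower step of SINVm1_gene_00166. Without the P_BB library of bioreplicate 2, its log2 fold change for P_BB against M_BB was 1.19, and that for P_Bb against P_BB was 3.49. The 3 comparisons share libraries, so their values are not independent.

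As background, the quasi-likelihood test of edgeR, adjusted by Benjamini-Hochberg over all tested genes, called 14 of the 10503 tested genes for P_Bb against P_BB (0.133%), all higher in P_Bb, but 1 gene when P_BB of bioreplicate 3 or 7 or P_Bb of bioreplicate 2 was left out. It called 16 for P_Bb against M_BB (0.152%), again all higher in P_Bb, but 9 without M_BB of bioreplicate 7. DESeq2 also called genes lower in P_Bb, with 25 higher and 3 lower against P_BB, and 28 higher and 12 lower against M_BB. For P_BB against M_BB edgeR's test called 0 (0%), and DESeq2 called 8. Of the 10503 tested genes, 505 had an unadjusted p under 0.05 in edgeR's test for P_BB against M_BB. The same was met by 106 for P_Bb against P_BB and by 715 for P_Bb against M_BB. A share of about 0.05 would meet it with no difference between classes, so nothing is read from these counts. The order M_BB below P_BB below P_Bb held for SINVm1_gene_00166 in 4 of 4 bioreplicates, as it did in 43 tested genes (0.409%). For XLOC_023347 it held in 3 of 4, and at least 3 of 4 were met by 691 tested genes (6.58%). All 4 P_Bb libraries were above the other 8 in 38 genes (0.362%), both members among them. All libraries of the 3 classes were apart in that order in 3 genes (0.0286%), which were SINVm1_gene_00166, the uncharacterized XLOC_044145 and SINVm1_gene_10481, a transposable element annotated as nuclease harbi1-like. Since the members were chosen for this order, nothing is read from these shares.

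Set against each other, the 2 genes differed most in M_BB and least in P_Bb. XLOC_023347 had 8.86, 5.93, 6.93 and 4.87 times the TPM of SINVm1_gene_00166 in M_BB of bioreplicates 2, 3, 6 and 7. In P_BB the ratio was 1.04, 5.88, 2.92 and 3.09. In P_Bb it was 0.772, 1.29, 1.21 and 1.39, so that per length the transcripts reached nearly equal abundance there. M_BB and P_Bb did not overlap in this ratio, whereas P_BB spread across the range between and met both, its bioreplicate 2 lying with P_Bb and its bioreplicate 3 with M_BB. The mean log2 ratio was 2.70 ± 0.37 in M_BB, 1.45 ± 1.03 in P_BB and 0.19 ± 0.38 in P_Bb (SD, n = 4 each).

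**Figure D3:**
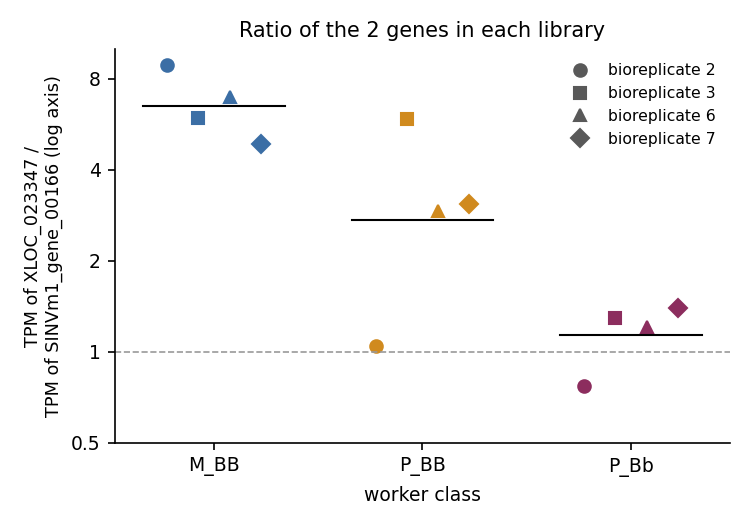
TPM of XLOC_023347 divided by that of SINVm1_gene_00166 in each library, on a log axis, by class and bioreplicate, with the mean of the log2 ratios as a black bar and equal levels as a dashed line. The M_BB libraries lie between 4.87 and 8.86 and the P_Bb libraries between 0.772 and 1.39.

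The log2 step from P_BB to P_Bb was larger for SINVm1_gene_00166 than for XLOC_023347 in 4 of 4 bioreplicates, by 1.26 ± 0.72 (SD). The step from M_BB to P_BB was also larger in 4 of 4, by 1.25 ± 1.32, but in bioreplicate 3 by only 0.011. Within classes, the genes did not move together throughout. In M_BB both were on the same side of their class mean in 4 of 4 libraries, high in bioreplicates 3 and 7 and low in 2 and 6. The M_BB levels of SINVm1_gene_00166 rested on 2 to 6 counts with overlapping RSEM intervals, so its high and low libraries are not resolved. In P_BB the 2 genes were on the same side in 2 of 4, and in P_Bb in 2 of 4. Bioreplicate 2 held the highest P_BB and P_Bb levels of SINVm1_gene_00166, and in both classes XLOC_023347 was there below its class mean.

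The level of P_BB can also be placed between the other classes on the linear TPM scale, where 0% is M_BB and 100% is P_Bb. By class means, P_BB lay at 9.76% of the way for SINVm1_gene_00166 and at 9.82% for XLOC_023347, so nearly the same share of the rise fell between M_BB and P_BB. By bioreplicate the shares were 19.6%, 2.14%, 11.3% and 0.63% for SINVm1_gene_00166, and 12.5%, 12.7%, 22.6% and -9.62% for XLOC_023347. Bioreplicate 7 was lowest for both genes. On the log2(TPM + 1) scale the class-mean positions were 31.3% and 20.0%, so the similarity of the members in this measure depends on the scale.

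The same measure was taken for the 36 genes that the study's table lists as differing by genotype, a list chosen on these libraries and so not independent evidence. Of these, 31 had their highest mean in P_Bb. Their median position of P_BB was 1.20% by class means, with quartiles of -5.89% and 7.76%, and 6 of the 31 lay above both members. On the log2(TPM + 1) scale, the position over the whole list ran from -54.1% in the uncharacterized XLOC_040838, which was lower in P_Bb, to 46.0% in the uncharacterized XLOC_000345. Of the 31, 5 had at most 3 counts in every M_BB library. They were SINVm1_gene_02111 (the odorant-binding protein gene SiOBP12), SINVm1_gene_05175, SINVm1_gene_00401, SINVm1_gene_09325 and XLOC_000568, chosen after their values were seen. The study assigns the SB/Sb antennal reads of SiOBP12 mostly to SiOBP12b', a duplicate specific to Sb. The summed TPM of the 5 genes in P_BB lay 4.82%, 4.72%, 5.55% and 4.97% of the way from M_BB to P_Bb in bioreplicates 2, 3, 6 and 7. These sums rested on 8, 10.1, 5 and 5 counts. In M_BB the 5 genes together had 4, 2.05, 5 and 1 counts, so in bioreplicate 6 both classes rested on equal counts. An excess of P_BB over M_BB is therefore not resolved by these sums. The few P_BB counts came mostly from SINVm1_gene_02111 and SINVm1_gene_05175, and the single genes spread from -13.2% to 69.2%. SINVm1_gene_00166 exceeded those sums in bioreplicates 2 and 6 and was below them in 3 and 7. XLOC_023347 exceeded them in 2, 3 and 6 and was below in 7. Whether P_BB pools held RNA from P_Bb nestmates was not tested.

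**Figure D4:**
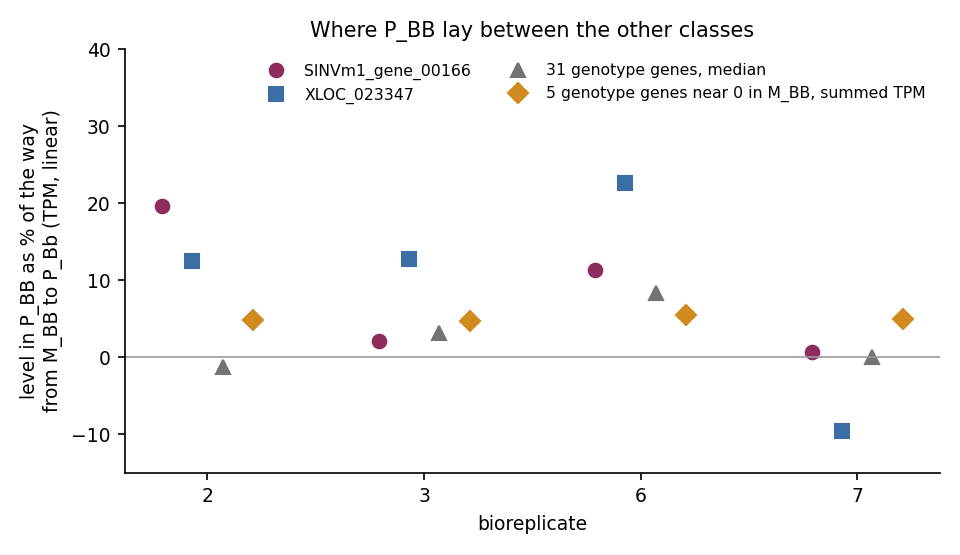
Position of the P_BB level between M_BB (0%) and P_Bb (100%) on the linear TPM scale in each bioreplicate, for the members, for the median of 31 genotype genes and for the summed TPM of 5 genotype genes with at most 3 counts in every M_BB library. The members range from -9.62% to 22.6%, and the 5-gene sum from 4.72% to 5.55%. That sum rests on 5 to 10.1 counts in P_BB and 1 to 5 counts in M_BB.

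Both genes were among the closest to each other in pattern over the 12 libraries. They were chosen for the same rise to P_Bb, so a likeness across classes follows from that choice. The measure was Pearson's r of log2(TPM + 1) against the other 10502 tested genes. It is given as a description, since all points share the libraries and the large P_Bb difference. With class means subtracted, r between the members was 0.376. For SINVm1_gene_00166 the closest were SINVm1_gene_02111 (r = 0.936), SINVm1_gene_00935 (r = 0.935), XLOC_023347 (r = 0.929), XLOC_044145 (r = 0.920) and SINVm1_gene_10777 (r = 0.902). For XLOC_023347 they were SINVm1_gene_00935 (r = 0.958), SINVm1_gene_00166 (r = 0.929), SINVm1_gene_09325 (r = 0.918), XLOC_001413 (r = 0.909) and XLOC_003217 (r = 0.907). SINVm1_gene_02111 is annotated as an odorant-binding protein, a carrier of odor molecules in the fluid of the sensilla. Its P_Bb reads are those that the study assigns mostly to the Sb-specific copy SiOBP12b'. SINVm1_gene_00935 and SINVm1_gene_10777 are annotated as harbi1-like nucleases, relatives of the transposase of Harbinger elements, and SINVm1_gene_09325 carries an integrase core domain, as retroelements do. Of each 5, the genotype list of the study held 4 for SINVm1_gene_00166 and 3 for XLOC_023347, beside 34 of all 10503 tested genes. That list was chosen on these same libraries and the members for their rise to P_Bb, so nothing is read from this overlap. By Spearman's rho, which uses only the ranks of the libraries, each member was only the 19th closest to the other (rho = 0.825), and SINVm1_gene_10481 was closest to SINVm1_gene_00166 (rho = 0.895).

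The gene nearest to each member shows what this likeness held. SINVm1_gene_02111 had 0, 0, 0.94 and 1.97 TPM in M_BB, 10.3, 3.82, 1.21 and 0 TPM in P_BB, and 57.8, 105, 28.6 and 55.2 TPM in P_Bb of bioreplicates 2, 3, 6 and 7. Its P_BB levels rested on 7, 3.11, 1 and 0 counts. As for SINVm1_gene_00166, its highest P_BB library was that of bioreplicate 2 and its lowest that of bioreplicate 7. Bioreplicates 3 and 6 of P_BB were in the opposite order in the 2 genes. In P_Bb, SINVm1_gene_02111 was highest in bioreplicate 3, where SINVm1_gene_00166 was lowest. SINVm1_gene_00935 had 3.97, 12.9, 6.67 and 12.6 TPM in M_BB, 9.06, 8.47, 14.1 and 7.26 TPM in P_BB, and 65.5, 47.3, 80.7 and 73.6 TPM in P_Bb. Its P_BB and M_BB libraries overlapped, with the order of the classes held in 2 of 4 bioreplicates.

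**Figure D5:**
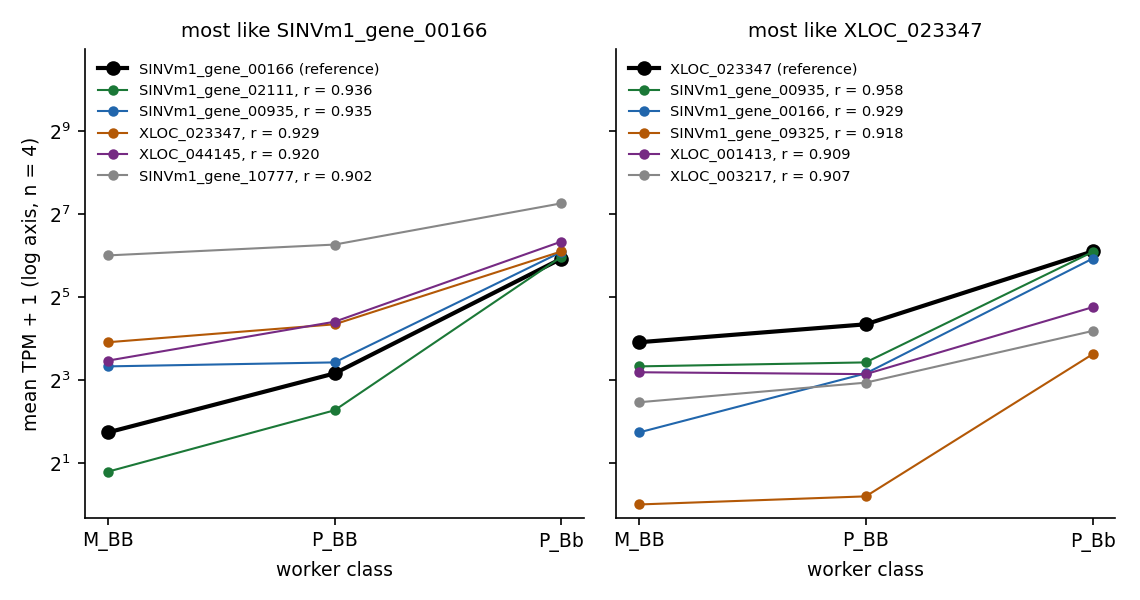
Class means of TPM + 1 (n = 4 each, log axis) for SINVm1_gene_00166 (left) and XLOC_023347 (right) in black, with the 5 tested genes of highest Pearson's r of log2(TPM + 1) over 12 libraries in colour. All are highest in P_Bb, and they differ in the step between M_BB and P_BB.

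With SINVm1_gene_00166 set aside, 15 other transposable elements stood in the study's table, again chosen on these libraries, and 14 were tested. For P_Bb against P_BB, 4 of the 14 were called higher and 0 lower, beside 0.133% of all tested genes called. The elements were listed because they differed in these libraries, so a share or median apart from that of all genes follows from the choice. By sign alone, 10 of the 14 had a log2 fold change above 0 and 4 below 0. The median over the 14 was 0.75, beside 0.01 for all genes. Those called were the Gypsy element XLOC_000229 (log2 fold change 2.74 ± 0.32, SE), SINVm1_gene_09325 (5.55 ± 0.84), SINVm1_gene_00935 (2.79 ± 0.39) and the L2 element XLOC_001846 (2.13 ± 0.37). Their adjusted p in edgeR's quasi-likelihood test were 0.00414, 0.0283, 0.0106 and 0.0435. With the bioreplicate number as a replicate block, 2 of the 14 were called, XLOC_000229 and SINVm1_gene_00935. Without any single P_BB or P_Bb library the count was 1 or 2. For P_Bb against M_BB, 3 were called higher and 0 lower, with a median of 1.32 beside -0.016 for all genes. Here 11 of the 14 had a log2 fold change above 0 and 3 below 0. For P_BB against M_BB none passed the test in edgeR or DESeq2, with a median of 0.23 beside -0.020.

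The elements annotated as transposases or harbi1-like nucleases, the closest in kind to SINVm1_gene_00166, did not share 1 pattern. SINVm1_gene_00935 had means of 9.03 ± 4.43 TPM in M_BB, 9.72 ± 3.01 in P_BB and 66.8 ± 14.4 in P_Bb (SD, n = 4 each). SINVm1_gene_10777 had 63.0 ± 19.9, 75.7 ± 8.98 and 152 ± 19.6 TPM, with an adjusted p of 0.489 for P_Bb against P_BB in edgeR's test. SINVm1_gene_10481 had 167 ± 73.8, 264 ± 12.6 and 319 ± 28.3 TPM, its larger step lying between M_BB and P_BB. SINVm1_gene_09125 was low, at 1.69 ± 1.65, 5.84 ± 4.23 and 9.72 ± 0.44 TPM. The mean of SINVm1_gene_00196 was instead lowest in P_Bb, at 101 ± 2.48, 125 ± 15.5 and 68.5 ± 15.3 TPM, as was that of the tc1 transposase XLOC_003144, at 315 ± 67.7, 324 ± 43.1 and 205 ± 36.4 TPM. Neither passed edgeR's test for P_Bb against P_BB (adjusted p of 0.434 and 0.495). Of all 15 elements, 2 had the order M_BB below P_BB below P_Bb in 4 of 4 bioreplicates, SINVm1_gene_10481 and the Pol element XLOC_001664. On the log2(TPM + 1) scale the position of P_BB was lowest in SINVm1_gene_00196 (-51.1%) and highest in the Mariner element SINVm1_gene_10899 (348%). The latter was listed at 0 in all 4 P_BB libraries and was not tested. It ran from 0 to 174 TPM in M_BB and from 0 to 38.7 TPM in P_Bb, with an SD above the mean in both. Its position is therefore not reliable.

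Of the 3 genes measured on the same scaffold, 243, 269 and 711 kb from XLOC_023347, 2 were tested and neither passed in any of the comparisons. Over all tested genes the share called was 0.133% for P_Bb against P_BB, 0% for P_BB against M_BB and 0.152% for P_Bb against M_BB. With shares so low, nothing is read from the absence of calls in 2 genes. The annotation lists 197 assembled genes on that scaffold, the nearest 1117 bases away, but only 3 others were in the expression tables. XLOC_023328, with 4 exons at 248444 to 261471, had means of 21.6 ± 2.64 TPM in M_BB, 21.3 ± 7.26 in P_BB and 21.1 ± 7.66 in P_Bb (SD, n = 4 each). Its log2 fold change for P_Bb against P_BB was -0.043 ± 0.24 (SE), with an adjusted p of 0.99997 in edgeR's test. XLOC_023386, at 274249 to 280742, had 11.04 ± 3.49, 10.5 ± 2.85 and 10.5 ± 1.79 TPM, and its log2 fold change was -0.034 ± 0.24 in the same fit, with the same adjusted p of 0.99997. XLOC_023459, at 716391 to 717551, had 3.32 ± 1.88, 2.86 ± 1.54 and 4.37 ± 2.80 TPM on 78 counts in all and was not tested. The tested neighbours lay 243 and 269 kb from XLOC_023347, so the closer genes of the scaffold are not covered.

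Library names fell into 2 groups by their prefix, LGC in 8 libraries and LGC16 in 4, the latter being M_BB of bioreplicates 2 and 7 and P_BB and P_Bb of bioreplicate 7. What the prefix marks is not given in the sources used here. Among LGC libraries, SINVm1_gene_00166 had 1.23 to 3.35 TPM in M_BB, 4.37 to 15.5 in P_BB and 51.0 to 74.4 in P_Bb, so the classes remained apart. Among LGC16 libraries it had 1.16 and 3.57 TPM in M_BB, 3.88 in P_BB and 52.7 in P_Bb. For XLOC_023347, LGC libraries had 8.53 and 19.9 TPM in M_BB, 16.2 to 25.7 in P_BB and 57.4 to 73.1 in P_Bb. Among LGC16 libraries, its 12.0 TPM in P_BB lay between the M_BB values of 10.3 and 17.4 TPM, and P_Bb was at 73.4 TPM. The P_Bb difference of both genes was thus present under either prefix, and the step between M_BB and P_BB rested on few libraries in each.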

How the data were processed

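The authors mapped quality-filtered reads of the amplified antennal cDNA with Bowtie2 onto the official gene set plus assembled coding transcripts, and RSEM gave the deposited expected counts and TPM per gene and library. RSEM's posterior SD and credibility bounds, deposited as scores beside them, were used as given. Positions, exons, strand and class code of assembled genes came from the deposited Si_gnH annotation. Members and lists were chosen with earlier results of these data known.

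Expected counts were rounded and fitted over all 12 libraries in edgeR 4.0.16 (TMM, filterByExpr, robust quasi-likelihood test, Benjamini-Hochberg over 10503 genes, threshold 0.05) without a block. DESeq2 1.42.0 and limma 3.58.1 on log2(TPM + 1) were alternatives. The script was tested on simulated counts. No pair of libraries of a class agreed within sampling noise (lowest chi-square per degree of freedom 6.54 over 18 pairs).

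By the labels, the polygyne pools with the same number come from 1 colony, and by the supplementary methods each number pairs that colony with a monogyne colony collected and sampled on the same dates. Deviations of the polygyne pools of a number from their class means correlated with a median r of 0.386 over 4 pairs (0.0799 to 0.637). Over all 12 same-numbered pairs it was 0.230 (-0.348 to 0.637), against -0.089 over 36 pairs of different numbers. Deviations from a class mean sum to 0 over the 4 libraries of a class. The value for different numbers is thus tied to that for same numbers and is no independent baseline. From the labels and methods, the numbers were taken as paired for the ratios within bioreplicates, and the blocked fit was run as an alternative. The adjusted p-values printed here come from the fit without a block. That fit treats the libraries as independent, although the P_BB and P_Bb pools of a number share a colony. Its p-values rest on a spread between pools that is estimated jointly over all classes. P_BB and P_Bb came from the same 4 colonies, so they do not add separate colonies.

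Named genes were the members, the scaffold neighbours in the tables, the 5 genes of highest Pearson's r with each member and the 3 after class means were subtracted, the extremes of P_BB position in both lists, and the transposase and harbi1-like elements. The study's own fold changes and posterior probabilities were not used.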

Additional observations from a re-analysis of the deposited data

How the results depend on the processing

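All fold changes and within-bioreplicate ratios of the 2 members kept their sign under every alternative run and moved by less than the SD between bioreplicates. For P_BB against M_BB that SD was 1.77 for SINVm1_gene_00166 and 0.82 for XLOC_023347, beside mean log2 ratios of 1.73 and 0.48. A shift within the SD could thus remove that step, so this measure does not show the step to be stable. Leaving out libraries in turn, the log2 fold change of SINVm1_gene_00166 ran from 2.61 to 3.49 for P_Bb against P_BB, from 1.19 to 2.08 for P_BB against M_BB and from 4.39 to 4.93 for P_Bb against M_BB. For XLOC_023347 it ran from 1.62 to 1.92, from 0.23 to 0.58 and from 2.01 to 2.35. Requiring 10 counts in every library removed SINVm1_gene_00166, which had 2 counts in an M_BB library. Counts of called genes moved more. For P_Bb against P_BB, 14 became 28 with DESeq2, 2 with 10 counts in every library, 8 with the name prefix as a term and 11 with a replicate block. For P_Bb against M_BB, 16 became 40 with DESeq2, 5 with 10 counts and 15 with the block, and for P_BB against M_BB, 0 became 8 with DESeq2. Of the other named genes, the block brought SINVm1_gene_02111 and XLOC_044145 under the threshold for P_Bb against P_BB, and it changed no other call outside the transposable elements.

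Without the 4 libraries prefixed LGC16, chosen after seeing the data, 1 gene was called for P_Bb against P_BB and 4 for P_Bb against M_BB. Leaving out each library gave 1 to 22 genes for P_Bb against P_BB (22 without M_BB 2, 8 without P_BB 2, 7 without P_Bb 3, 5 without P_Bb 6, 2 without P_BB 6 or P_Bb 7, 1 without P_BB 3, P_BB 7 or P_Bb 2). It gave 9 to 23 for P_Bb against M_BB (9 without M_BB 7) and 0 to 1 for P_BB against M_BB (1 without M_BB 3). Of the transposable elements, 4 called for P_Bb against P_BB became 2 with the block, 7 with DESeq2, 1 without LGC16 and 1 to 5 without a library (1 or 2 without any single P_BB or P_Bb library). The 3 called for P_Bb against M_BB became 7 with DESeq2, 1 without LGC16 and 2 to 5 without a library (5 without M_BB 2). No scaffold neighbour was called with the block, with DESeq2, without LGC16 or without any single library. Of the 10 places in the likeness lists, 2 were shared with Spearman's rho and 8 with edgeR's log2 CPM. Where fewer libraries or genes were used, the counts changed with them, and for the other settings the cause was not tested. Counts of 2 to 8 in most SB/SB libraries limit the M_BB to P_BB step of SINVm1_gene_00166.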

Other observations

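After class means were subtracted from log2(TPM + 1), the members were no longer close to each other, with r = 0.376 over 12 libraries. XLOC_023347 was then 931st of 10502 genes in likeness to SINVm1_gene_00166, and SINVm1_gene_00166 was 2603rd in likeness to XLOC_023347. The genes most like SINVm1_gene_00166 within classes were XLOC_017096 (r = 0.945), XLOC_041967 (r = 0.853) and SINVm1_gene_00785 (r = 0.845). Those most like XLOC_023347 within classes were XLOC_030782 (r = 0.920), XLOC_040604 (r = 0.917) and SINVm1_gene_06284 (r = 0.893). None of these 6 was in the genotype list. XLOC_017096 was abundant, with means of 84.6 ± 24.6 TPM in M_BB, 117 ± 42.2 in P_BB and 123 ± 33.5 in P_Bb (SD, n = 4 each). These r values were picked as the highest of all genes and are a description.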
